A study of Mus musculus with 12 samples.

Results

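Trim71, Trim2, Trim3 and Trim32 are the mouse TRIM-NHL genes, which encode proteins with a tripartite motif at the N-terminal end and NHL repeats at the C-terminal end. They were chosen by gene name, and all 4 were found among the 20409 genes of the per-screen tables. Their insertions were counted in 3 ORFtag screens in mouse embryonic stem cells, with 2 sorted and 2 unsorted libraries for each screen and 12 libraries in all. In ORFtag a retroviral cassette that carries its own promoter and selection marker, followed by a tag and a splice donor, integrates into the genome, and its transcript is spliced to a downstream exon, so that the endogenous protein is made with the tag near its N terminus. In the activator screen the tag was TetR, the DNA-binding domain of the tetracycline repressor, and cells in which a silent GFP reporter had gained signal were sorted. In the repressor screen the tag was again TetR, and cells that had lost GFP from an active reporter were sorted. In the screen for posttranscriptional gene regulators (PTGR) the tag was λN, which binds boxB hairpins placed in the reporter mRNA, and cells with reduced GFP were sorted in several rounds. The boxB sites were then removed with Cre, and a last sort kept the cells with higher GFP. All groups carried a reporter and had been transduced and selected for the cassette, and the unsorted libraries were taken from those cells without the sort on GFP. The activator and PTGR reporter lines were clonal, and the repressor line came from earlier work. Tag, reporter and sorting scheme differed together between the PTGR screen and the other screens and cannot be told apart. The material was genomic DNA, so the cell type could not be checked by its markers.

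TRIM71, also known as LIN41, is an RNA-binding ubiquitin ligase of early embryos and stem cells, and its mRNA is a classical target of the let-7 microRNA. Its NHL repeats bind hairpins in target mRNAs, whose level or translation then falls. TRIM2, TRIM3 and TRIM32 share the domain order and are best known as ubiquitin ligases in neurons and muscle. A fly relative, Brat, acts on mRNA together with Pumilio and Nanos.

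An ORFtag fusion starts at a splice acceptor, so the acceptor to which an insertion was assigned gives the expected start of a tagged protein. The study mixed cassettes for all reading frames. Neither the frame nor the spliced transcript of single insertions was read here. The acceptor of Trim71 exon 2, which received all of its sorted insertions, and the main acceptors of Trim2, Trim3 and Trim32 are shown as 30 bases on the gene's strand of GRCm38, the assembly of mm10. The intron is in lower case and the first bases of the exon are in capitals.
Trim71 exon 2, chr9:114525112-114525141, minus strand: cccgtctctctggtccacagGTCCTGCATC
Trim2 exon 2, chr3:84210345-84210374, minus strand: gcttttctctccgaccacagCAGCGTGCAG
Trim3 exon 2, chr7:105625562-105625591, minus strand: gactatttctctgtacacagGCTGGTGTGA
Trim32 exon 2, chr4:65613109-65613138, plus strand: ggtttgttttttctctttagCAGGAATCTG
In the GENCODE annotation Trim71 covers chr9:114507133-114564369 and has 4 exons. Exon 1 holds the first 271 of 855 codons, or 31.7% of the coding sequence, so a fusion at exon 2 lacks the N-terminal part and keeps the remainder, with the NHL repeats at its end. In Trim32, at chr4:65604986-65616238, all 655 codons lie in exon 2, and a fusion there keeps the whole protein. In the transcripts used here, exon 2 of Trim2 (chr3:84160439-84306877) is preceded by 1 of 761 codons and exon 2 of Trim3 (chr7:105604463-105633571) by 0 of 744.

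An insertion was a unique genomic position assigned to the nearest downstream exon at most 200 kb away on the cassette's strand (sense). Sorted libraries held 14705 to 60980 sense insertions and unsorted libraries 54088 to 233799, and counts are given per 10000 sense insertions of a library. Intervals in brackets are 95% Wilson intervals and cover counting error only. In both repressor unsorted libraries the lists repeated 100% of positions. In PTGR sorted replicate 2 they repeated 12.7%, against 0.0104% in PTGR sorted replicate 1. Each position was counted once in every library.

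Trim71 was enriched in the PTGR screen. Replicate 1 of the PTGR sorted cells held 156 sense insertions, or 25.6 per 10000 (21.9 to 29.9), and replicate 2 held 121, or 20.7 per 10000 (17.3 to 24.7). The unsorted PTGR libraries held 104 and 22, which is 4.45 (3.67 to 5.39) and 4.07 (2.69 to 6.16) per 10000. Both sorted libraries lay above all 6 unsorted libraries, which ranged from 2.3 to 4.45 per 10000. Such a separation was seen for 7.83% of the 9303 genes with at least 3 sorted insertions. The mean was 23.1 ± 3.48 per 10000 (SD, n = 2) in the sorted cells and 3.31 ± 0.859 (SD, n = 6) in the unsorted cells of the 3 screens, which served together as background. By number of sorted insertions Trim71 ranked 4 of 20409 genes, but its background count was also higher than that of 97.6% of genes.

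Against the pooled background, 277 sorted insertions stood beside 336 background insertions, where the background share would have given 39.3. The log2 odds ratio was 2.82 (SE 0.12), an odds ratio of 7.06, with an adjusted p of 2.78e-103 (one-sided Fisher's exact test, Benjamini-Hochberg over the genes tested). Calls required a log2 odds ratio of 1 or more together with an adjusted p under 0.001, and 62 genes, or 0.666% of those tested, met both. Trim71 was 30 of the 62 when these were ordered by odds ratio. It was the 1 of 4 TRIM-NHL genes called.

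Fisher's test takes insertions as independent and leaves out the spread between libraries. The edgeR quasi-likelihood test on the 4 PTGR libraries, which includes it, gave a log2 fold change of 2.54 with an adjusted p of 6.00e-12. At an adjusted p below 0.05, the threshold of all edgeR calls here, it called 2.24% of the genes tested as higher. With the replicate number as a block the values were 2.59 and 2.80e-06, with 2.3% called. The prior degrees of freedom, the weight edgeR gives to a spread shared by the genes tested, were 4860 without the block and 13.4 with it. Without the block the p-value thus rests almost wholly on that shared spread and little on the spread of Trim71 itself. These p-values depend on the edgeR settings: over 32 combinations of filter, deviance, robust estimation and block, 30 of which were added after the first values had been seen, the log2 fold change stayed between 2.48 and 2.62, but the adjusted p ran from 4.67e-34 to 0.121. It was below 0.05 in 30 of the 32 and above it in 2, where edgeR called 0 genes.

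**Figure D1:**
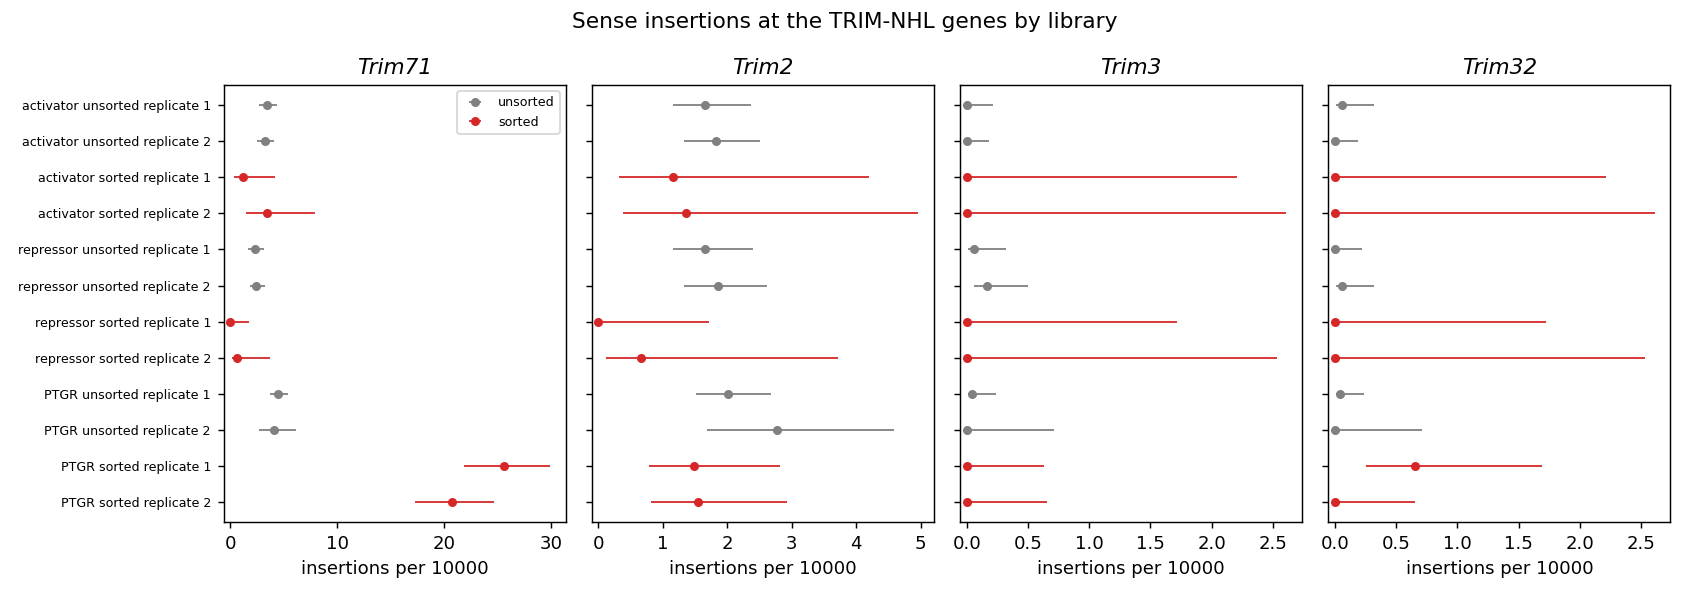
Sense insertions per 10000 insertions of a library (x axis, separate scale for each gene) for the 4 TRIM-NHL genes in each of the 12 libraries, with 95% Wilson intervals. Trim71 in the 2 PTGR sorted libraries sits at 25.6 and 20.7, above all unsorted libraries, and the interval of each sorted library of the other genes overlaps that of at least 1 unsorted library.

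In the activator screen Trim71 was not enriched. The sorted libraries held 2 and 5 insertions, or 1.15 (0.315 to 4.19) and 3.4 (1.45 to 7.96) per 10000, and the unsorted libraries 60 and 67, or 3.42 and 3.23 per 10000. One sorted value lay below both unsorted values and the other lay between them. The log2 odds ratio was -0.59 (SE 0.55), with an adjusted p of 1 in the one-sided Fisher's exact test, which called 4.64% of 2842 genes. With depth counted without the called genes, an alternative added after seeing the data, the log2 odds ratio was -0.0048.

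In the repressor screen Trim71 held 0 and 1 insertions in the sorted libraries, where a count of 0 allows up to 1.35 per 10000 in replicate 1. The unsorted libraries held 40 and 43, or 2.3 and 2.43 per 10000. Both sorted values were below the unsorted ones, but how often this occurs among all genes was not counted. With 1 insertion the gene did not reach the minimum of 3 for the test, which called 8.18% of 2346 genes. A one-sided Fisher's exact test for fewer insertions, added after the values had been seen, gave a log2 odds ratio of -3.62 (SE 1.44) and an adjusted p of 0.0168, short of the threshold that 0.0547% of genes passed. With the unsorted repressor cells alone as background the log2 odds ratio was -3.15 and the adjusted p 0.11. With depth counted without the called genes the values were -2.52 and 1, without sorted replicate 1 they were -2.32 and 1, and without sorted replicate 2, where the count was 0, the adjusted p was 0.267.

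The sorted effect of Trim71 differed between screens. In an edgeR quasi-likelihood fit over the 12 libraries, the log2 fold change in the PTGR screen exceeded that in the activator screen by 2.75 (adjusted p = 0.000324), a contrast in which 0.584% of the genes tested were called higher. It exceeded that in the repressor screen by 4.78 (adjusted p = 3.32e-05), where 0.895% were called higher. These contrasts were fitted with the planned edgeR settings, and the 30 added settings were not applied to them.

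Splicing joins the tag to exons of the cassette's strand alone, so insertions assigned after reversing the strand are an internal comparison. Reversed Trim71 insertions numbered 14 and 6 in the PTGR sorted libraries, or 2.35 and 1.04 per 10000, and 60 and 18 in the PTGR unsorted libraries, or 2.61 and 3.35 per 10000. Both sorted values were below both unsorted ones, but how many genes show this was not counted. The log2 odds ratio against the pooled background was -0.70 (SE 0.33), with an adjusted p of 1 in the test for more insertions, which called 0.5% of genes. Of all Trim71 insertions, sense ones made up 91.8% (86.7 to 95) and 95.3% (90.1 to 97.8) in the sorted PTGR replicates and 54.6% (50.7 to 58.5) in the background. In the activator and repressor screens the reversed Trim71 log2 odds ratios were 0.13 (SE 0.49) and 0.08 (SE 0.49), and 3.14% and 5.61% of genes were called there.

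**Figure D2:**
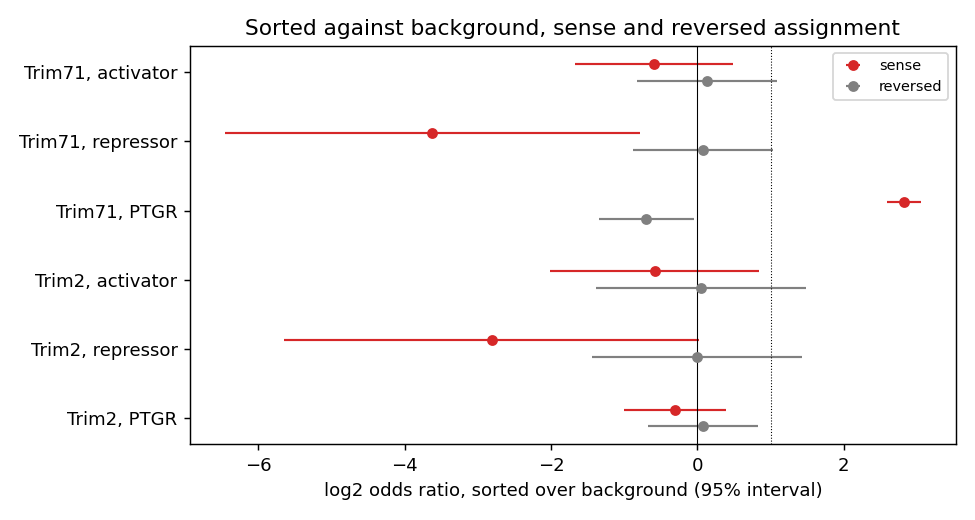
Log2 odds ratio of sorted over background insertions (x axis, points with 95% intervals) for Trim71 and Trim2 in each screen, for the sense and the reversed assignment. The solid line marks 0 and the dotted line the threshold of 1, which sense insertions of Trim71 in the PTGR screen exceeded at 2.82.

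The sorted Trim71 insertions came from many positions. The 2 PTGR sorted libraries held 273 different positions, of which 4 were in both and 31 were also in an unsorted PTGR library. A total of 224 of the 277 sorted insertions were in no other library. All 277 were assigned to exon 2. In the background 15 of 336 insertions, or 4.46%, were assigned to exon 3 or 4. The 0 of 277 in the sorted cells allows a share of up to 1.08%. This contrast was noticed after the values had been seen and was not tested.

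By region, 127 of the 277 sorted insertions (45.8%) lay upstream of the gene, 8 (2.89%) in exon 1 and 142 (51.3%) downstream of exon 1. In the background the shares were 48.5%, 4.76% and 46.7%. The median distance to exon 2 was 32.3 kb in sorted replicate 1 and 39.6 kb in replicate 2, and from 36.4 to 44.9 kb in the unsorted libraries. The lower quartile was 4.53 kb in replicate 1 against 23.3 kb in replicate 2, so the replicates differed most close to the exon. No insertion was farther than 61.2 kb from exon 2. The assignment to the nearest exon sets such a limit, because Cnot10 lies 21508 bp upstream of Trim71 on the same strand. Insertions farther upstream would be assigned to Cnot10.

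**Figure D3:**
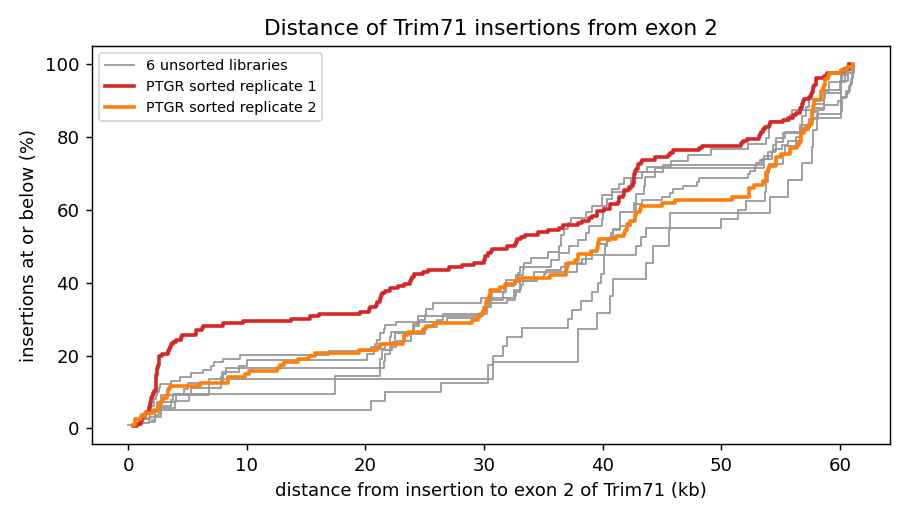
Cumulative share of Trim71 exon 2 insertions (y axis, %) against the distance from the insertion to exon 2 (x axis, kb) for the 2 PTGR sorted libraries and the 6 unsorted libraries. Sorted replicate 1 holds more insertions near the exon, with a lower quartile at 4.53 kb, and sorted replicate 2 runs among the unsorted libraries.

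By number of background insertions Trim2 was within reach of the assay, but it was not called in any screen. Its background held 191 insertions, more than 93.2% of genes, where the median gene had 15. Their median distance to the assigned exon was 63.6 kb, against 35.4 kb in the PTGR sorted cells. Whether the distant insertions tag Trim2 was not tested. The PTGR sorted libraries held 9 and 9 insertions, or 1.48 and 1.54 per 10000, and the PTGR unsorted libraries 47 and 15, or 2.01 and 2.77 per 10000. The sorted values were below those of all 6 unsorted libraries, whose lowest was 1.65. The share of all genes with such a separation was not counted. The log2 odds ratio was -0.31, with a 95% interval from -1.01 to 0.39, and Fisher's exact test for more insertions gave an adjusted p of 1. The interval lies below the threshold of 1.

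The activator sorted libraries held 2 and 2 Trim2 insertions beside 29 and 38 in the unsorted ones. The log2 odds ratio was -0.58, with a wide interval from -2.01 to 0.84. The repressor sorted libraries held 0 and 1 beside 29 and 33, too few for the test. Most Trim2 insertions were assigned to exon 2, with 13 of 18 in the PTGR sorted cells and 133 of 191 in the background. Reversed Trim2 insertions in the PTGR screen had a log2 odds ratio of 0.07 (SE 0.38).

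Trim3 and Trim32 were hardly reached. The background held 5 insertions at Trim3 and 3 at Trim32, fewer than at the median gene. Trim3 had 0 sense insertions in all 6 sorted libraries. In the PTGR sorted cells, 0 of 119540 insertions allows up to 0.251 per 10000, above the background mean of 0.0449 ± 0.0659 (SD, n = 6), so neither enrichment up to that level nor depletion was detectable at this depth.

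Trim32 had 4 sense insertions in PTGR sorted replicate 1, or 0.656 per 10000 (0.255 to 1.69), and 0 in replicate 2. The 4 positions lay 8.25, 9.27, 25.8 and 38.8 kb before exon 2 and were in no other library. The log2 odds ratio was 3.51 (SE 1.10), which Fisher's exact test put at an adjusted p of 0.133, and all of it rested on 1 library. In the activator and repressor screens Trim32 had 0 sorted insertions.

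Neighbouring genes with enough insertions for the test were not called in the PTGR screen. Cnot10, which encodes a component of CCR4-NOT, the main mRNA deadenylase, lies 21508 bp upstream on the same strand and held 5 and 17 sorted insertions beside 179 in the background, a log2 odds ratio of 0.07 (adjusted p = 0.903, Fisher's exact test). Ccr4, a chemokine receptor gene unrelated to that complex despite its name, lies 2216 bp downstream and held 0 and 2 sorted insertions. Astn2, which overlaps Trim32 on the opposite strand, had 7 and 2 (log2 odds ratio 1.36, adjusted p = 0.31, Fisher's exact test). The nearest neighbours of Trim2 were Mnd1 and Fhdc1, those of Trim3 Hpx and Arfip2, and those of Trim32 Pappa and Tlr4. Fhdc1 and Tlr4 were tested and not called. Ccr4, Mnd1, Hpx, Arfip2 and Pappa had fewer than 3 sorted insertions and were not tested. C130032M10Rik and Gm6525, which overlap Trim71 and Trim2 on the opposite strand, were not among the genes of the tables.

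Pathway genes linked to TRIM71 were taken from 5 lists with 36 genes, of which 33 were in the tables and 27 had at least 3 sorted PTGR insertions. In the PTGR screen 10 of the 27 were called, where 0.666% of all genes tested were. The lists were chosen with earlier results of these data known, and the study names most of the called genes as hits. The share is therefore a description and no test of the pathway. In the activator screen 8 listed genes reached the minimum of 3 sorted insertions and in the repressor screen 5, and 0 of these were called by Fisher's exact test, where 4.64% and 8.18% of all genes tested were, so few calls could have been made. The median log2 odds ratio of all genes tested was 0.14 in the PTGR screen.

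Of the microRNA effectors, 5 of 6 tested genes were called, with a median log2 odds ratio of 2.8. Tnrc6b, a GW182 protein that links Argonaute to deadenylases, held 102 and 99 sorted insertions, with a log2 odds ratio of 4.34. Its paralogs Tnrc6a and Tnrc6c stood at 3.17 and 2.18. The Argonautes Ago2 and Ago1 stood at 3.84 and 2.44. Tnrc6a held 8 and 35 sorted insertions and Ago1 8 and 25, and without sorted replicate 2 neither was called, at log2 odds ratios of 1.71 and 1.37 (adjusted p of 0.138 and 0.231, Fisher's exact test). Ago4, with 6 and 1 sorted insertions, had a value of 1.10 and was not called.

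Of the genes of LIN28 and let-7 processing, 0 of 6 tested were called, with a median of -0.41. Tut4, a uridylyltransferase that acts on let-7 precursors, had the most sorted insertions, 8 and 11, and a log2 odds ratio of 0.41 (SE 0.36). Of the nonsense-mediated decay genes, 4 of 8 tested were called. These were Smg9 at 3.78, Smg5 at 2.92, Smg1 at 2.70 and Upf2 at 1.74 on the log2 odds ratio scale. Upf2 was not called without sorted replicate 1 (log2 odds ratio 1.64, adjusted p = 0.00192, Fisher's exact test).

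Of the Pumilio, Nanos and cap-binding genes, 1 of 3 tested was called. Eif4e2, a cap-binding protein of translational repression, held 47 and 54 sorted insertions and had a log2 odds ratio of 1.22. Of the other genes with NHL repeats, 0 of 4 tested were called. Their median log2 odds ratio was 1.49, which rests on few insertions. Pam and Nhlrc2, with 5 sorted insertions each, had the most. Pam held 5 and 0, at 2.42, and Nhlrc2 held 4 and 1, at 0.56.

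**Figure D4:**
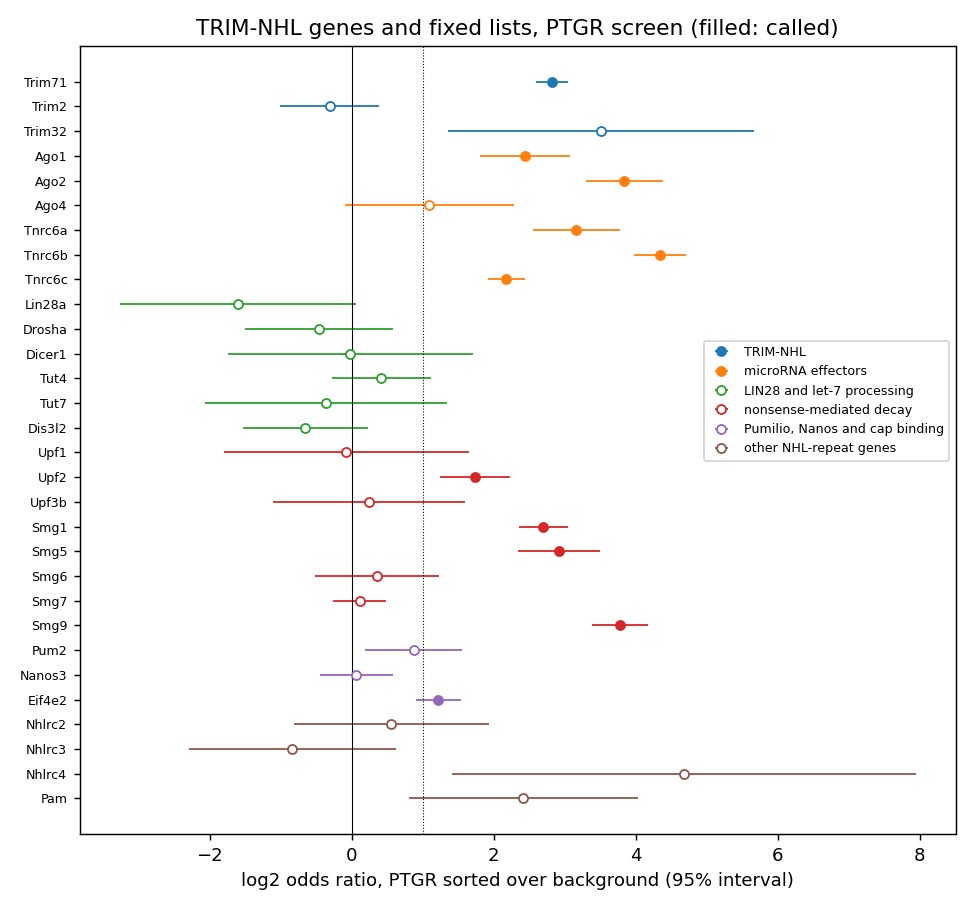
Log2 odds ratio of PTGR sorted over background insertions (x axis, points with 95% intervals) for the TRIM-NHL genes and the listed genes with at least 3 sorted insertions. Filled points were called, among them Trim71 at 2.82 and Tnrc6b at 4.34, and no gene of LIN28 and let-7 processing is filled.

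The genes whose pattern was most like that of Trim71 were sought among 9732 genes with at least 20 insertions, by Pearson's correlation of log2(insertions per 10000 + 1) over the 12 libraries. They were Ikbkg (r = 0.943), Fmn2 (0.936), Eif4enif1 (0.934), Trim26 (0.933) and Upf2 (0.925). Of these, 4 were called in the PTGR screen, where 0.666% of all genes tested were, and Fmn2, with 11 and 6 sorted insertions, was not. Trim71 is highest in the PTGR sorted libraries, and the same libraries enter both the correlation and the calls. Calls among these genes are therefore no separate result. The 12 points share their libraries and depth, and the correlation is given as a description.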

How the data were processed

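ORFtag insertion sites of 12 libraries, 2 per group, were analysed. Per the study's methods and the submitters' processing notes, reads were trimmed with Trim Galore 0.6.0, mapped to mm10 and filtered with SAMtools 1.9, and the authors assigned each insertion to the nearest downstream non-first exon. The authors deposited, for each library, lists of insertion positions with their distance to that exon (other), and per-screen tables with pooled insertion counts. Columns with the authors' own odds ratios and adjusted p-values were not used. From the lists, unique positions at most 200 kb from the exon were counted per gene. For Trim71 in the PTGR sorted cells the authors' count was 313, equal to the positions as listed, and the unique count was 277.

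The main test was a one-sided Fisher's exact test (SciPy 1.17.1) of 2 sorted against 6 unsorted libraries, with Benjamini-Hochberg adjustment over genes with at least 3 sorted insertions. Differences between screens were tested with edgeR 4.0.16 (R 4.3.3, TMM, filterByExpr), and DESeq2 1.42.0 was an alternative. The scripts were tested on simulated data. Unsorted and sorted cells came from the same transduced pools. Same-numbered libraries shared more positions in the PTGR screen (18.2% and 6.76% of sorted positions, against 0.342% and 1.79% for the other number) and the activator screen (4.96% and 19.5% against 2.25% and 1.46%), but not for both numbers in the repressor screen. Their deviations correlated at 0.334, 0.0643 and -0.0298 in the PTGR, activator and repressor screens, and fits with the number as a block are given. The labels call libraries replicates. The edgeR and DESeq2 p-values measure only the spread between them, and those of Fisher's exact test leave it out. Named genes were the 4 members, listed genes called in the PTGR screen or with the most sorted PTGR insertions in their list, the 5 genes most like Trim71, and neighbours. The members and lists were chosen with earlier results of these data known. One gene of the lists is not reported here and was left out of their counts, but stayed in the tests over all genes. Coordinates and exons are from GENCODE vM21 on GRCm38, the assembly of mm10, while the authors used a later release.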

Additional observations from a re-analysis of the deposited data

Results flagged for a closer look

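The sorted effect of Trim71 differed between screens by the edgeR interaction test. It was higher in the PTGR screen than in the activator screen by 2.75 on the log2 scale (adjusted p = 0.000324) and higher than in the repressor screen by 4.78 (adjusted p = 3.32e-05). Groups of 2 libraries were too small to look for single outlying libraries.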

How the results depend on the processing

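The enrichment of Trim71 in the PTGR screen kept its direction under all 52 alternatives, with log2 values from 2.33 to 3.02, and its call under 50. Leaving out 1 library at a time gave log2 odds ratios from 2.65 to 2.98, with 1 of the 4 genes called each time. The unsorted PTGR libraries alone as background gave 2.41, the lowest Fisher value. DESeq2 gave 2.48 (adjusted p = 1.03e-08). Because the planned edgeR p was very small for 2 libraries per group, all 32 combinations of 4 filters, 2 forms of the deviance, robust estimation or not and replicate block or not were run after seeing the data; 2 of these were the planned fits. The adjusted p ran from 4.67e-34 to 0.121 while the prior degrees of freedom estimated by edgeR ran from 3.16 to infinite. The call was lost in 2: with a filter of at least 10 counts, bias-adjusted deviances and a replicate block, the log2 fold change was 2.53 with and without robust estimation, with adjusted p of 0.121 and 0.0951, and 0 of the TRIM-NHL genes were called. With a replicate block the planned fits gave 2.59 in the PTGR screen, 2.79 for PTGR minus activator and 4.83 for PTGR minus repressor, and changed no call. Signs turned only in results that were not called: Trim71 in the activator screen without sorted replicate 1 (0.049, in a range from -0.68 to 0.049 when 1 library at a time was left out; without sorted replicate 2 the 2 remaining insertions were too few for the test, at -1.52), and Trim2 in the PTGR screen at a maximum distance of 10 kb (0.13), for activator sorted cells with depth counted without called genes, added after seeing the data (0.0027), and for reversed insertions with the PTGR unsorted libraries as background (-0.19). Library depth limits Trim3 and Trim32, and the sorted activator and repressor libraries.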
